A study of Mus musculus with 6 samples.

Results

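The genes described here are those that make, break down and sense retinoic acid, 10 genes listed by symbol. They are 4 synthesis enzymes (*Rdh10*, *Aldh1a1*, *Aldh1a2* and *Aldh1a3*), 3 Cyp26 enzymes (*Cyp26a1*, *Cyp26b1* and *Cyp26c1*) and 3 receptors (*Rara*, *Rarb* and *Rarg*). Each symbol was found at 1 of the 24207 entries of the table. The study compared male mouse embryos at E9.5 that were homozygous for a mutant allele, Smchd1MommeD1/MommeD1 (3 embryos), with wildtype Smchd1+/+ embryos (3 embryos), by RNA-seq of total RNA from whole embryos. MommeD1 is a chemically induced nonsense mutation of *Smchd1*, which encodes a chromatin protein needed for X inactivation, and the wildtype embryos do not carry it. The labels give the background strain of both genotypes as C57Bl6/J x FVB/n, whereas the study's text describes a backcross to another strain. The values are FPKM, read counts scaled for transcript length and for the size of the library, with 1 pooled value per genotype. No spread between embryos and no sequencing depth can be given, and no test was run. A ratio of at least 1.5-fold after 0.1 FPKM was added to both values, in a gene with a mean of at least 1 FPKM was counted in place of a call.

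Retinoic acid is made from vitamin A by a pair of oxidation steps. Rdh10 turns retinol into retinaldehyde, and the Aldh1a enzymes turn retinaldehyde into retinoic acid. The Cyp26 enzymes are cytochromes P450 that oxidise retinoic acid and so clear it from a tissue. Retinoic acid acts by binding the nuclear receptors Rara, Rarb and Rarg, which sit on DNA together with an Rxr partner. In the midgestation embryo Aldh1a2 in somites and lateral mesoderm is the main source for the trunk, and Cyp26a1 keeps the tail bud free of retinoic acid. *Rarb* and *Cyp26a1* are themselves known targets of the receptors, so that each is both a part of the pathway and a readout of it.

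The receptors bind paired half-sites in DNA. Because *Rarb* and *Cyp26a1* are targets, the promoters of the genes were searched for 2 copies of GNTCA with 6 bases between them, which covers the repeat with a spacing of 5, and with 3 bases between them, which covers the repeat with a spacing of 2. Both strands were searched from 250 bases before to 50 bases after each RefSeq gene start (build GRCm38.p6). Promoters were given for 8 of the 10 genes (13 promoters), *Rdh10* and *Aldh1a3* being the others. The repeat with a spacing of 5 was present in 2 of these 13 promoters, those of *Rarb* and *Cyp26a1*, and in 0.861% of all 32851 promoters. Both genes were already known to respond to retinoic acid, so that these matches are shown as a description of the sequences only. The repeat with a spacing of 2 was present in 0 of the 13 promoters and in 1.12% of all promoters. The 250 bases before the start of each of these 2 genes are shown 5′ to 3′ along the gene's own strand, because they carry the sequence through which both genes are known to respond, with the repeat in capitals. That of *Rarb* is on the minus strand at chr14:16575477-16575726, and that of *Cyp26a1* on the plus strand at chr19:37697558-37697807.
Rarb: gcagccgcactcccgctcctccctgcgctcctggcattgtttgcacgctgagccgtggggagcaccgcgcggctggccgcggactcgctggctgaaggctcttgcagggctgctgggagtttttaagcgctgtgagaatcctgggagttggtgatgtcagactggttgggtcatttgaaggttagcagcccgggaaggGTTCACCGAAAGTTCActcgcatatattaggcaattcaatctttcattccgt
Cyp26a1: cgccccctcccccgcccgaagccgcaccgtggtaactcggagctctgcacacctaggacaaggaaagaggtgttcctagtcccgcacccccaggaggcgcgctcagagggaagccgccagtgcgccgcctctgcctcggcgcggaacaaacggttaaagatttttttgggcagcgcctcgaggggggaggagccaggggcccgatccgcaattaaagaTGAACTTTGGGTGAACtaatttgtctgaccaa

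In *Rarb* the repeat ran from base 52 to base 37 before the start, at 16575513 to 16575528 of chromosome 14, on the strand of the gene. In *Cyp26a1* it ran from base 32 to base 17 before the start, at 37697776 to 37697791 of chromosome 19, on the opposite strand. The table begins the locus of *Cyp26a1* at 37697773, so that its repeat lies inside that locus. Read along its own strand, each repeat has 16 bases.
Rarb: GTTCACCGAAAGTTCA
Cyp26a1: GTTCACCCAAAGTTCA
The repeats were identical at 15 of the 16 bases and differed by G8C, written from *Rarb* to *Cyp26a1* with positions counted from 1 at the 5′ end. A match is a description of the letters, and binding was not measured.

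Of the 10 genes, all of which had a mean of at least 1 FPKM, 1 was higher by at least 1.5-fold in Smchd1MommeD1/MommeD1 embryos and 0 were lower by that much. The gene that was higher was *Aldh1a1*, at the lowest level of the 10. Over the 12345 entries with a mean of at least 1 FPKM, 3.54% were higher and 1.46% lower by at least 1.5-fold. Past a log2 ratio of 0.32 in either direction, a lower bar than the 0.58 of 1.5-fold, 1 gene was higher (*Aldh1a1*) and 3 were lower (*Aldh1a2*, *Cyp26a1* and *Cyp26c1*), where 8.89% of all entries were higher and 4.98% lower. With both genotypes scaled to the same total FPKM, *Aldh1a2* had a log2 ratio of -0.3204, just short of the bar of 0.3219, and 2 genes were lower. Among the 6526 entries with a mean of 5 to 40 FPKM, the range that holds these 3 genes, 3.40% were lower by at least 0.32 on this scale. The median log2 ratio of mutant over wildtype, with 0.1 FPKM added to each value, was -0.034 over the 10 genes and -0.0073 over all 12345 entries. Of the 10 genes 5 had a log2 ratio above 0 and 5 below, where 5957 of the 12345 entries were above 0 and 6388 below. Log2 ratios below are on the same scale with 0.1 FPKM added, and folds are ratios of the FPKM values themselves.

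**Figure D1:**
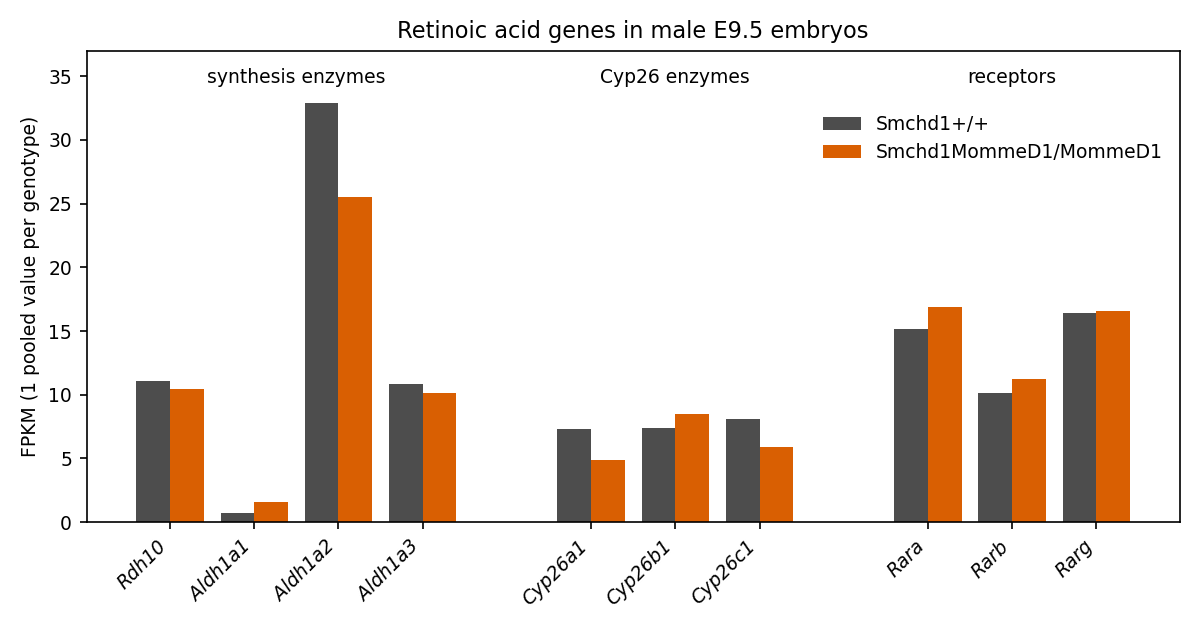
FPKM of the 10 retinoic acid genes (vertical axis, linear from 0) in Smchd1+/+ embryos (grey) and Smchd1MommeD1/MommeD1 embryos (orange), grouped by role; each bar is 1 pooled value, so there are no error bars. *Aldh1a2* was the most abundant in both genotypes, at 32.9 FPKM in wildtype and 25.6 FPKM in mutant embryos, and *Aldh1a1* the least, at 0.738 and 1.57 FPKM.

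Of the synthesis enzymes, 3 of 4 were lower and 1 was higher in mutant embryos, and their median log2 ratio was -0.089. *Aldh1a2*, which makes most of the retinoic acid of the trunk, lies on chromosome 9 of MM10 from 71215789 to 71296246. It was at 25.6 FPKM in Smchd1MommeD1/MommeD1 and 32.9 FPKM in Smchd1+/+ embryos. The wildtype value was 1.29 times the mutant value, a log2 ratio of -0.36, and 3.99% of all entries had a ratio as low or lower. *Aldh1a2* was nevertheless the most abundant of the 10 genes in both genotypes, and 24.7% of all entries had a higher mean.

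*Rdh10*, the enzyme of the first step, lies on chromosome 1 from 16105349 to 16133720. It was at 10.5 FPKM in mutant against 11.1 FPKM in wildtype embryos, a log2 ratio of -0.080. *Aldh1a3*, which is known from the developing eye and nose, lies on chromosome 7 from 66390893 to 66427495. It was at 10.2 FPKM in mutant against 10.9 FPKM in wildtype embryos, a log2 ratio of -0.098. Both genes lay well inside the range of all entries, of which 32.4% had a ratio as low as that of *Rdh10* or lower and 28.4% as low as that of *Aldh1a3*.

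*Aldh1a1*, which in the embryo is best known from the dorsal retina, was the exception in direction. Its entry lies on chromosome 19 from 20601982 to 20643462, whereas GENCODE M21 begins the gene further upstream, at 20492715. Its level was 1.57 FPKM in mutant against 0.738 FPKM in wildtype embryos, a 2.13-fold higher value in the mutants and a log2 ratio of 0.999. Over all entries 1.01% had a ratio as high or higher. Large ratios were more frequent at low levels, and among the 1300 entries with a mean of 1 to 2 FPKM, 12.7% were higher by at least 1.5-fold. The gene passed the minimum mean of 1 FPKM narrowly, at 1.16 FPKM, and with 1 FPKM added to each value in place of 0.1 its log2 ratio was 0.57, under the 0.58 that 1.5-fold corresponds to.

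Summed over the 4 synthesis enzymes, the level was 47.8 FPKM in mutant against 55.6 FPKM in wildtype embryos. *Aldh1a2* made up 53.5% of this sum in mutant and 59.2% in wildtype embryos, and *Aldh1a1* 3.30% and 1.33%. The ratio of *Aldh1a2* to *Aldh1a1* was 16.2 in mutant and 44.6 in wildtype embryos. That of *Rdh10* to *Aldh1a2*, the first step against the main enzyme of the second, was 0.410 and 0.337. Such ratios within a genotype do not depend on how the genotypes were scaled to each other.

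Among the Cyp26 enzymes 2 of 3 were lower and 1 was higher in mutant embryos. Their median log2 ratio was -0.44, the lowest of the 3 roles, but it is the value of 1 gene, *Cyp26c1*. By summed FPKM the roles were close, with a change in mutant embryos of -15.2% for the Cyp26 enzymes and -14.1% for the synthesis enzymes. *Cyp26a1*, the Cyp26 enzyme of the tail bud, lies on chromosome 19 from 37697773 to 37701670. It was at 4.89 FPKM in mutant against 7.29 FPKM in wildtype embryos. The wildtype value was 1.49 times the mutant value, a log2 ratio of -0.57 and just short of the 1.5-fold counted here. Of all entries, 1.55% had a ratio as low or lower.

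*Cyp26c1*, which is known from the hindbrain, is the neighbour of *Cyp26a1*. GENCODE M21 places it on the plus strand of chromosome 19 from 37685581 to 37693398, and 4399 bases separate it from *Cyp26a1*, on the same strand. Its level was 5.91 FPKM in mutant against 8.07 FPKM in wildtype embryos. The wildtype value was 1.37 times the mutant value, a log2 ratio of -0.44, and 2.57% of all entries had a ratio as low or lower. In the table the locus of *Cyp26c1* is shared with *Exoc6*, a subunit of the exocyst, which is listed at 2 entries there. *Exoc6* was at 5.14 FPKM in mutant against 5.37 FPKM in wildtype embryos at its more abundant entry, and at 0.830 and 1.48 FPKM at the other. Reads can be hard to divide within a shared locus, although in GENCODE M21 *Cyp26c1* shares 0 of its 1747 exonic bases with another gene.

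*Cyp26b1*, known from the hindbrain and later from limb and gonad, lies on chromosome 6 from 84571414 to 84593908. It went the other way, at 8.52 FPKM in mutant against 7.41 FPKM in wildtype embryos, a 1.15-fold higher value in the mutants and a log2 ratio of 0.20. A ratio as high or higher was found at 15.3% of all entries. The Cyp26 enzymes were at near-equal levels in wildtype embryos, where *Cyp26c1* was the most abundant, with 35.5% of their summed FPKM. *Cyp26b1* made up 32.5% and *Cyp26a1* 32.0% of it. In mutant embryos *Cyp26b1* was the most abundant, with 44.1% of the sum, followed by *Cyp26c1* with 30.6% and *Cyp26a1* with 25.3%. The ratio of *Cyp26b1* to *Cyp26a1* was thus 1.74 in mutant and 1.02 in wildtype embryos, while that of *Cyp26a1* to *Cyp26c1* was 0.827 and 0.903.

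**Figure D2:**
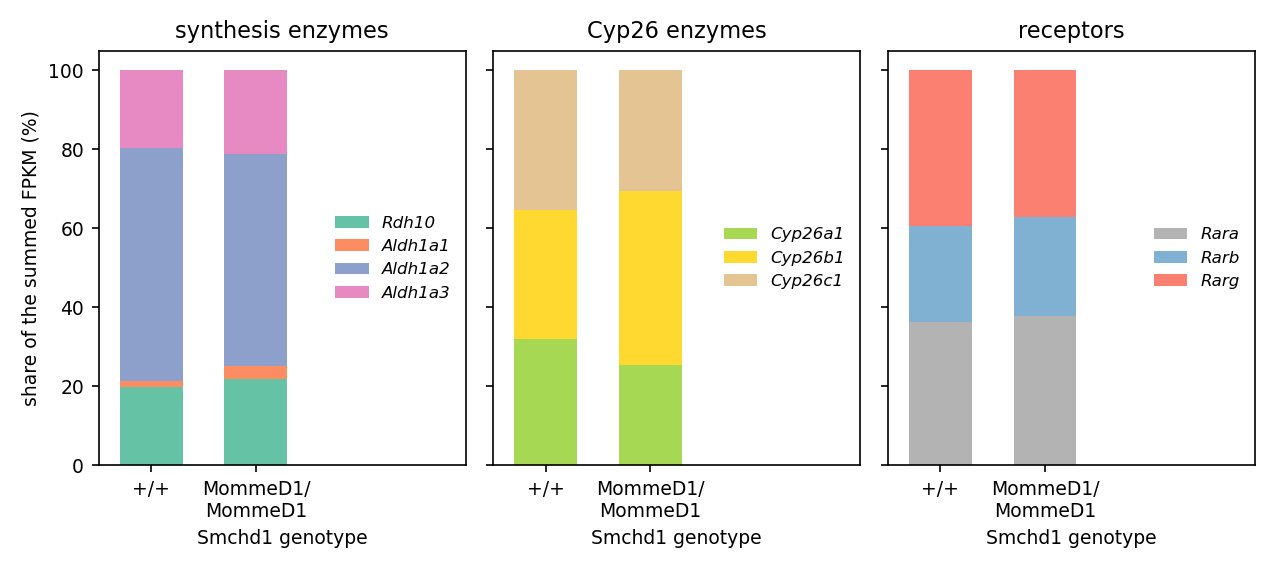
Share of the summed FPKM of each role (vertical axis, %) taken by each gene in Smchd1+/+ embryos (left bar of each panel) and Smchd1MommeD1/MommeD1 embryos (right bar). *Cyp26b1* took 32.5% of the Cyp26 sum in wildtype and 44.1% in mutant embryos, while *Rara* took 36.4% and 37.8% of the receptor sum.

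All 3 receptors had log2 ratios above 0, with a median of 0.14 and a range of 0.013 to 0.15, and none reached 0.32. The sign of *Rarg* depended on the scaling, since its log2 ratio was -0.0031 with the genotypes scaled to the same total over entries with a symbol and at least 200 bases. *Rara*, the most widely expressed of the receptors, lies on chromosome 11 from 98927704 to 98974942. It was at 16.9 FPKM in mutant against 15.2 FPKM in wildtype embryos, a log2 ratio of 0.15. *Rarg*, which is known from the tail bud and from cartilage precursors, lies on chromosome 15 from 102234936 to 102257483. It was at 16.6 FPKM in mutant against 16.4 FPKM in wildtype embryos, a log2 ratio of 0.013 and the value nearest to 0 among the 10 genes.

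*Rarb*, the receptor that is itself induced by retinoic acid, has its entry on chromosome 14 from 16430840 to 16575440. It was at 11.2 FPKM in mutant against 10.2 FPKM in wildtype embryos, a log2 ratio of 0.14, and 21.4% of all entries had a ratio as high or higher. GENCODE M21 extends *Rarb* to 16819156, beyond the end of the entry. Over that longer gene, 38.4% of the exonic bases are shared with genes on the opposite strand, *Top2b* and *Gm48162*. The share within the entry alone was not computed. The loci of *Rarb* and *Top2b* in the table do not overlap. The libraries were nondirectional, so that reads of overlapping genes on opposite strands cannot be told apart. *Top2b*, a DNA topoisomerase, was at 54.6 FPKM in mutant against 55.8 FPKM in wildtype embryos. The other 9 genes share no exonic base with another gene in GENCODE M21. *Rarb* and *Cyp26a1*, which hold the near-identical repeats printed above, had log2 ratios on opposite sides of 0, at 0.14 and -0.57.

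Summed over the 3 receptors, the level was 44.7 FPKM in mutant against 41.8 FPKM in wildtype embryos. *Rara*, *Rarb* and *Rarg* made up 37.8%, 25.1% and 37.1% of this sum in mutant embryos. In wildtype embryos they made up 36.4%, 24.3% and 39.3%. The order of *Rara* and *Rarg* differed between genotypes, with *Rarg* higher in wildtype and *Rara* in mutant embryos, by a margin that cannot be set against a spread between embryos.

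The comparison of the roles with each other showed a lower sum for both the synthesis and the Cyp26 enzymes in Smchd1MommeD1/MommeD1 embryos. The sum of the Cyp26 enzymes was 19.3 FPKM in mutant against 22.8 FPKM in wildtype embryos. The summed synthesis enzymes were 2.47 times the summed Cyp26 enzymes in mutant embryos and 2.44 times in wildtype embryos, a log2 difference of 0.018. For single pairs of genes the ratios were further apart. *Aldh1a2* was 5.23 times as abundant as *Cyp26a1* in mutant and 4.51 times in wildtype embryos, and 2.998 and 4.44 times as abundant as *Cyp26b1*. The summed receptors were 2.31 times the summed Cyp26 enzymes in mutant and 1.83 times in wildtype embryos.

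**Figure D3:**
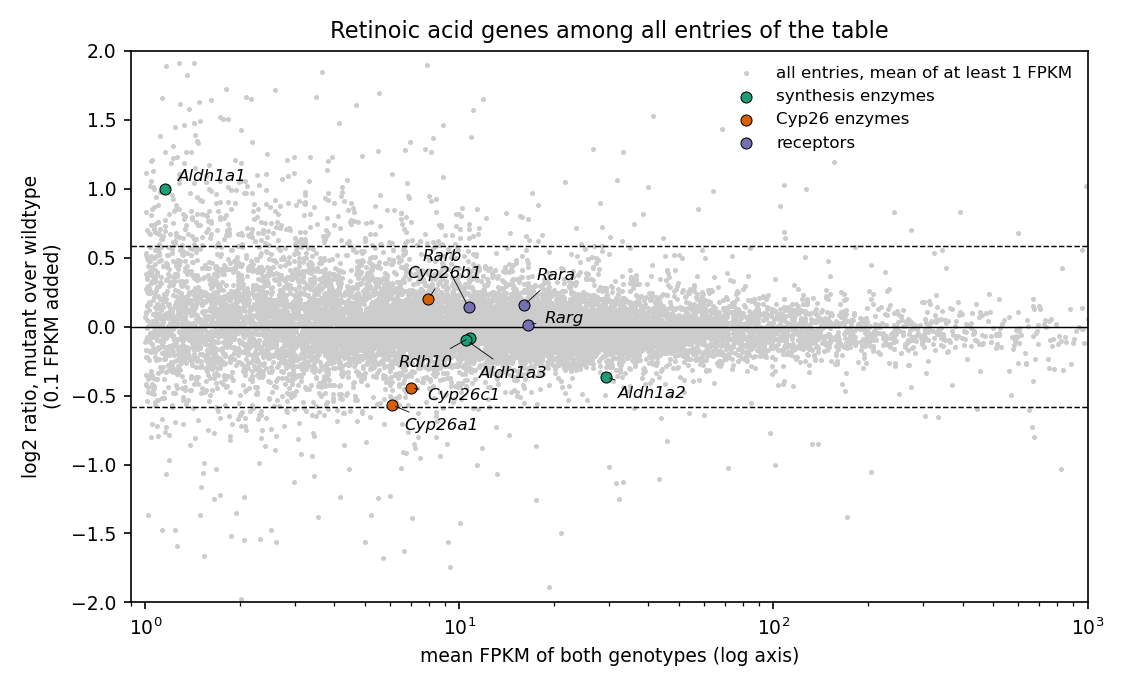
Log2 ratio of mutant over wildtype (vertical axis, 0.1 FPKM added) against the mean FPKM of both genotypes (horizontal log axis) for the 12345 entries with a mean of at least 1 FPKM (grey, 171 of which lie outside the axes) and the 10 retinoic acid genes (coloured by role); dashed lines mark 1.5-fold. *Aldh1a1* lies above the upper line at a mean of 1.16 FPKM, where grey points are widely spread, and *Cyp26a1* just inside the lower line at -0.57.

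Other genes of the pathway were described from lists. Of 10 genes for retinoid supply and binding, 8 had a mean of at least 1 FPKM, of which 0 were higher and 1 was lower by at least 1.5-fold, with a median log2 ratio of 0.068. The lower gene was *Rbp4*, the secreted carrier of retinol, at 6.46 FPKM in mutant against 11.8 FPKM in wildtype embryos, a log2 ratio of -0.85. *Crabp1*, a cellular binding protein for retinoic acid and the most abundant of the list, was at 620 FPKM in mutant against 578 FPKM in wildtype embryos, a log2 ratio of 0.10. Of 10 receptor partners and cofactors 8 were counted, since 1 had failed the authors' program and *Rxrg* was under 1 FPKM. Of these, 0 were higher and 0 lower by at least 1.5-fold, the log2 ratios ran from -0.14 to 0.20, and the corepressor *Ncor1*, the most abundant by the mean of both genotypes, had a log2 ratio of 0.011.

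Of 11 genes known to respond to retinoic acid, listed at 12 entries, 10 entries had a mean of at least 1 FPKM. Of these, 0 were higher and 2 were lower by at least 1.5-fold, against 1.46% of all entries that were lower, although the median log2 ratio was 0.085. The lower entries were those of *Cdx1* and *Hoxb1*, both homeobox genes. *Hoxb1* is also listed with the hindbrain markers below. The tail bud markers below, which include *Cdx2*, were all lower, with a median log2 ratio of -1.24. Their part in the values of *Cdx1* and *Hoxb1* was not tested. *Cdx1*, a caudal factor, was at 2.30 FPKM in mutant against 4.49 FPKM in wildtype embryos, a log2 ratio of -0.94. *Hoxb1* was at 6.61 and 10.2 FPKM, a log2 ratio of -0.62, and with both genotypes scaled to the same total FPKM only *Cdx1* was lower by 1.5-fold. *Nr2f1*, an orphan nuclear receptor and the most abundant of the list, was at 52.6 FPKM in mutant against 44.0 FPKM in wildtype embryos, a log2 ratio of 0.26. The response genes for which promoters were given numbered 7, and 0 of them held the repeat with a spacing of 5 in that window.

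Markers of the tissues that express these genes, and of tissues that vary with stage or dissection, were taken from lists. These lists were chosen with earlier results of these data known, and sums are over all listed entries. In whole embryos fewer cells of a type and less RNA per cell cannot be told apart. Over all 12345 entries with a mean of at least 1 FPKM, 3.54% were higher and 1.46% lower by at least 1.5-fold. All 10 tail bud markers were lower in mutant embryos, 7 of them by at least 1.5-fold, with a median log2 ratio of -1.24, a range of -1.62 to -0.22 and a sum of 27.1 FPKM in mutant against 53.7 FPKM in wildtype embryos. The 7 were *Cdx2*, *Hes7*, *Nkx1-2*, *Msgn1*, *T*, *Evx1* and *Tbx6*, with log2 ratios of -1.62 to -0.81. The most abundant of them by the mean of both genotypes, *Cdx2*, was at 3.22 FPKM in mutant against 10.1 FPKM in wildtype embryos. Of the 2 retinoic acid genes described above as known from the tail bud, *Cyp26a1* had a log2 ratio of -0.57 and *Rarg* of 0.013. Of 5 somite markers 3 were lower (median log2 ratio -0.18, sum 58.7 and 65.8 FPKM), where *Aldh1a2* had -0.36. Of the eye field markers 5 of 6 reached 1 FPKM, 4 of which were lower and 1 higher, *Lhx2*, by at least 1.5-fold (median -0.098, sum 41.5 and 35.9 FPKM). *Aldh1a3* had a log2 ratio of -0.098 and *Aldh1a1* of 0.999. Of 5 hindbrain markers 4 reached 1 FPKM, of which 3 were lower and 1 was higher (median -0.097, sum 41.2 and 47.3 FPKM). Of the lower ones only *Hoxb1* was lower by at least 1.5-fold, and with the same total FPKM 0 were. At any level 4 of the 5 were lower. Among them was *Egr2*, at 0.336 FPKM in mutant against 0.945 FPKM in wildtype embryos, whose mean was under the minimum. *Cyp26b1* and *Cyp26c1*, described above as known from the hindbrain, had 0.20 and -0.44.

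Of 5 heart and lateral plate markers 3 were lower, 0 by at least 1.5-fold (median -0.29, sum 41.6 and 48.0 FPKM). Their log2 ratios ran from -0.46 to 0.10, where *Aldh1a2*, described above as known also from lateral mesoderm, had -0.36. All 4 blood markers (*Hba-x*, *Hbb-y*, *Hbb-bh1* and *Alas2*) were higher by at least 1.5-fold (median 1.03), and their sum was 12667 FPKM in mutant against 5993 FPKM in wildtype embryos. Of 7 yolk sac endoderm markers 3 reached 1 FPKM, of which *Afp* was higher and *Ttr* and *Apoa1* were lower by at least 1.5-fold (median -0.87). At any level 6 of the 7 were lower, among them *Cubn*, at 0.157 FPKM in mutant against 1.37 FPKM in wildtype embryos, and *Apob*, at 0.346 and 1.52 FPKM, whose means were under the minimum. The sum of the 7, 19.5 FPKM in mutant against 22.2 FPKM in wildtype embryos, was mostly *Afp* in the mutants, at 14.7 against 8.10 FPKM. No marker was at 0 in either genotype. The part of these tissues in the values of the retinoic acid genes was not tested. *Smchd1* itself was at 2.12 FPKM in the embryos labelled Smchd1MommeD1/MommeD1 and 34.0 FPKM in those labelled Smchd1+/+.

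**Figure D4:**
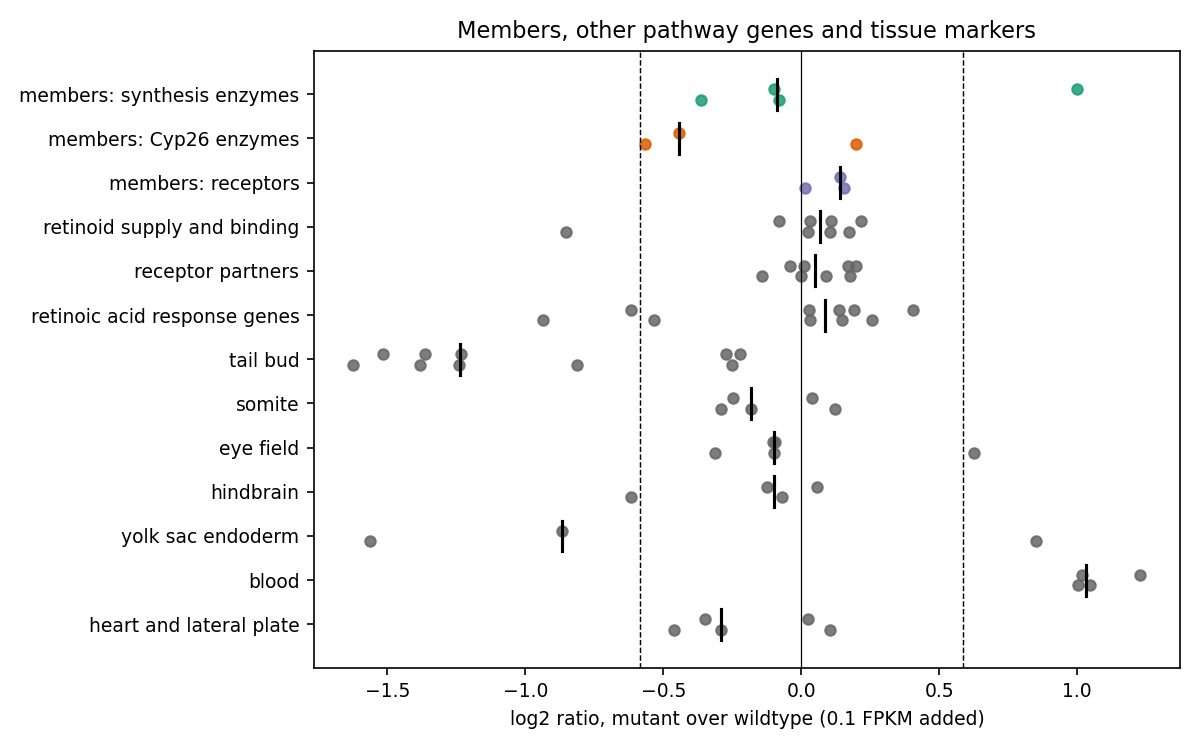
Log2 ratio of mutant over wildtype (horizontal axis, 0.1 FPKM added) for the retinoic acid genes by role (coloured), the other pathway lists and the tissue marker lists (grey), for entries with a mean of at least 1 FPKM; black bars are medians and dashed lines mark 1.5-fold. The tail bud markers lie furthest to the left (median -1.24) and the blood markers furthest to the right (median 1.03), with the 3 receptors between 0.013 and 0.15.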

How the data were processed

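RNA from 6 male embryos, 3 of each genotype, was sequenced by the authors from libraries that keep no strand. Per the labels and the methods, reads were mapped to MM10 with TopHat2 2.0.6 and Bowtie2 2.0.2, and genotypes were compared with Cufflinks and Cuffdiff 2.0.2. The deposited FPKM values are the authors' pooled values, 1 per genotype and entry. The table's fold changes, test statistics, p-values and q-values are the authors' own comparison and were not used. Since no values per embryo were used, no test over embryos was possible, and a fold of 1.5 was used in its place. Entries that had failed or held too many reads for Cuffdiff (135) were left out. Locus starts were counted from 1.

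The retinoic acid genes, the gene lists and the rules for naming genes were chosen with earlier results of these data known. Named genes were all 10 members, list genes past 1.5-fold and the most abundant gene of each pathway list. *Cubn*, *Apob*, *Egr2* and *Hoxb5* were named after their values were seen. Alternatives were pseudocounts, scalings, filters on low values, folds and the genes summed, and those on failed entries and on the Aldh1a enzymes alone were chosen after seeing the data. Of the steps only the fold rule was tested on simulated data, with 2-fold changes set in genes of at least 5 FPKM in wildtype embryos. Its behaviour near 1 FPKM was not tested. Genes of the other lists were counted at entries that name 1 gene, and a few list genes are not reported here. The planned comparison of proteins was not made. Depth is unknown. Python 3.11.15, numpy 2.4.6, pandas 2.3.3 and matplotlib 3.10.9 were used.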

Additional observations from a re-analysis of the deposited data

How the results depend on the processing

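Of 60 log2 ratios of single genes recomputed with other pseudocounts and scalings, 59 stayed on the same side of 1.5-fold. The exception was *Aldh1a1* with 1 FPKM added, at 0.57. For most genes this was fixed in advance, since they lay further from 1.5-fold than the scalings could move them. Of the ratios that stayed, that of *Cyp26a1* came closest to the bar of 0.585. It was -0.583 with the genotypes scaled to the same total over entries with a symbol and at least 200 bases. All 21 recomputed medians of the 3 roles stayed within 0.1 of those reported, which for many of them was fixed in advance. The scalings moved all log2 ratios by about the same amount, set by shifts of -0.0073, -0.043 and 0.016. The minimum mean of 1 FPKM left out none of the members. Only the pseudocounts could have moved a median by more. The count of genes higher by at least 1.5-fold was 0 with 1 FPKM added, with a minimum mean of 5 FPKM and with a fold of 2, and the count of lower genes was 3 past a log2 ratio of 0.32. The log2 difference between genotypes in the ratio of summed synthesis to summed Cyp26 enzymes was 0.21 without *Aldh1a2* and -0.12 without *Cyp26a1*, so its sign depends on the genes summed. It was -0.019 with the Aldh1a enzymes alone, an alternative chosen after seeing the data. With a fold of 2, 0 supply genes and 0 response genes were lower, and past a log2 ratio of 0.32, 3 response entries were lower and 1 was higher, an entry of *Hoxb5* at 0.41 whose other and more abundant entry was at -0.53. With both genotypes scaled to the same total FPKM, 1 response gene was lower in place of 2 and 0 hindbrain markers in place of 1, and past a log2 ratio of 0.32, 2 retinoic acid genes were lower in place of 3. The scaling of the tissue lists and of that lower bar was added after seeing the data. No paired analysis was possible because 1 pooled value per genotype was used, and for the same reason no embryo could be left out.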
